A study of Mus musculus with 9 samples.

Results

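Mouse embryonic stem cells of the E14 line were compared with and without the factors that hold them in self-renewal. Of the 9 libraries of the series, 6 entered the comparison, 3 labelled Control +LIF2i and 3 labelled Control 72h -LIF2i, chosen by their titles. With LIF2i the cells were kept in serum medium on gelatin with the cytokine LIF, 1 µM PD0325901, an inhibitor of the kinase MEK, and 1 µM CHIR99021, an inhibitor of glycogen synthase kinase 3 beta. Without LIF2i the same medium lacked all of these for 72 h. The labels give 72 h for the cultures with LIF2i too. No further agent is named for either group, both of which come from 1 cell line. The other 3 libraries, treated with CK666 during withdrawal, entered the fits of gene levels and shares only to help estimate the spread. The design text calls the replicates biological and paired, so replicate 1 with LIF2i was set against replicate 1 without it, and so on. LIF and both inhibitors were removed together, so their separate parts cannot be told apart. RNA was measured in bulk, where fewer cells of a kind and less RNA per cell cannot be told apart.

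Naive embryonic stem cells correspond to the early epiblast and are held there by a network of transcription factors that LIF, acting through STAT3, and beta-catenin, stabilised by CHIR99021, keep active. MEK and its substrate ERK push cells out of this state, first into a formative state in which naive factors are silenced, de novo DNA methyltransferases appear and the cells become able to respond to lineage cues. During this transition the cells flatten, change their adhesion molecules and exchange many transcript isoforms.

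Levels are given as TPM, a share of all transcripts in the library in which reads are divided by transcript length so that genes can be set side by side. Values are listed in the order replicate 1, 2 and 3. Log2 fold changes, each ± its standard error, compare the estimated counts without LIF2i with those with LIF2i in edgeR's quasi-likelihood fit with the replicate number as a block. A gene is called raised or lowered where the Benjamini-Hochberg adjusted p over all tested genes is under 0.05. The 6 libraries held 16894327 to 21635106 estimated counts, so that 3 counts, taken as the detection floor, equal 0.145 to 0.182 CPM, counts scaled by library size. Such floors cover counting error only.

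The replicate 1 libraries stood apart from the others. With LIF2i, replicate 1 held 15690 genes above 0, against 18647 and 18239 in replicates 2 and 3. Short transcripts were scarce in it: over 644 genes with an effective length under 500 bases, its median log2 CPM was lower than the mean of replicates 2 and 3 by a difference of -1.44, and over 2250 genes above 4000 bases it was higher by 0.35. Replicate 1 without LIF2i had the same slope, from -1.08 to 0.21. In the comparison within pairs most of this cancelled. The median change of the genes under 500 bases was 0.32 in pair 1, -0.15 in pair 2 and 0.02 in pair 3. The part of this length pattern in single gene changes was not tested beyond the values given without replicate 1 and with a length offset.

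**Figure D1:**
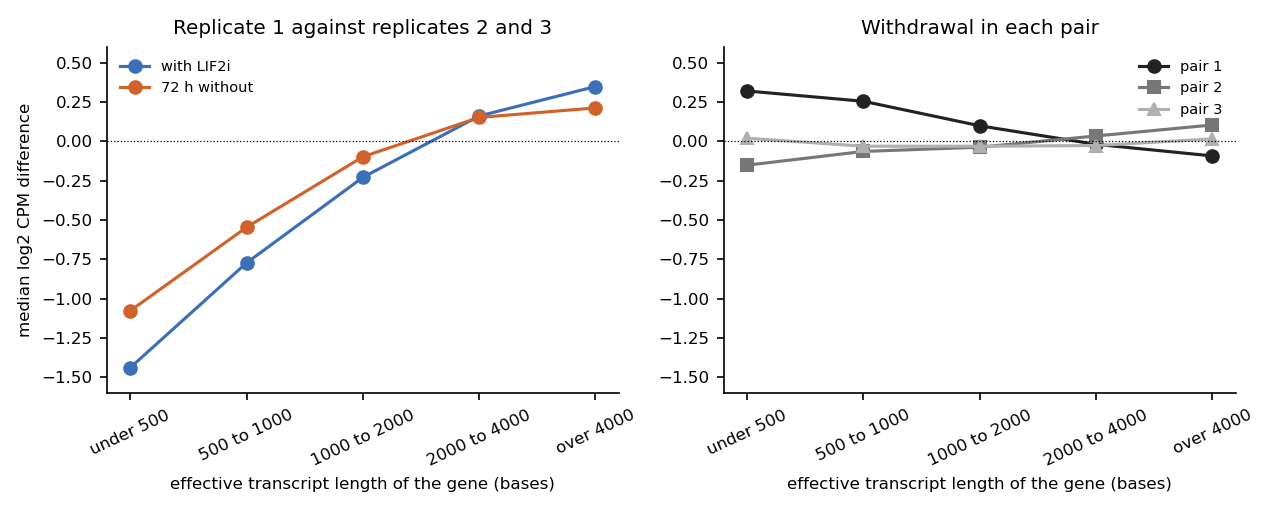
Median difference of log2 CPM (y axis, log2 units) over genes grouped by effective transcript length in bases (x axis), left for replicate 1 against the mean of replicates 2 and 3 within each group, right for each pair, without LIF2i minus with LIF2i. The left lines climb from -1.44 and -1.08 under 500 bases to 0.35 and 0.21 above 4000 bases, while the pair lines stay between -0.15 and 0.32.

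Withdrawal changed the level of a large part of the expressed genes. Of 14648 genes tested, 5967 were called (40.7%), 3087 raised (21.1%) and 2880 lowered (19.7%). The 2 groups did not overlap in 5961 genes (40.7%), and 5939 of the called genes moved in one direction in 3 of 3 pairs. Large changes were more often rises: 575 called genes rose 8-fold or more and 270 fell 8-fold or more. Folds from the detection floor are uncertain. Of the raised genes, 181 held at most 3 counts in every library with LIF2i. Of the lowered genes, 35 held at most 3 counts in every library without it. The part of such genes in the 8-fold counts was not tested. Among the 1538 genes with a mean of at least 100 TPM the balance turned, with 225 raised and 308 lowered. Without the replicate block 3509 genes were called, and without all replicate 1 libraries 6588. The share of all TPM that sat in other genes after withdrawal was 18.9% in pair 1, 13.1% in pair 2 and 12.6% in pair 3. Between replicates 2 and 3 of 1 group that share was 6.42% with LIF2i and 7.13% without, but between replicate 1 and the other replicates it was 22.5% to 31.4%. The 22 gene lists described below hold 303 distinct tested genes, of which 170 were called (56.1%).

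**Figure D2:**
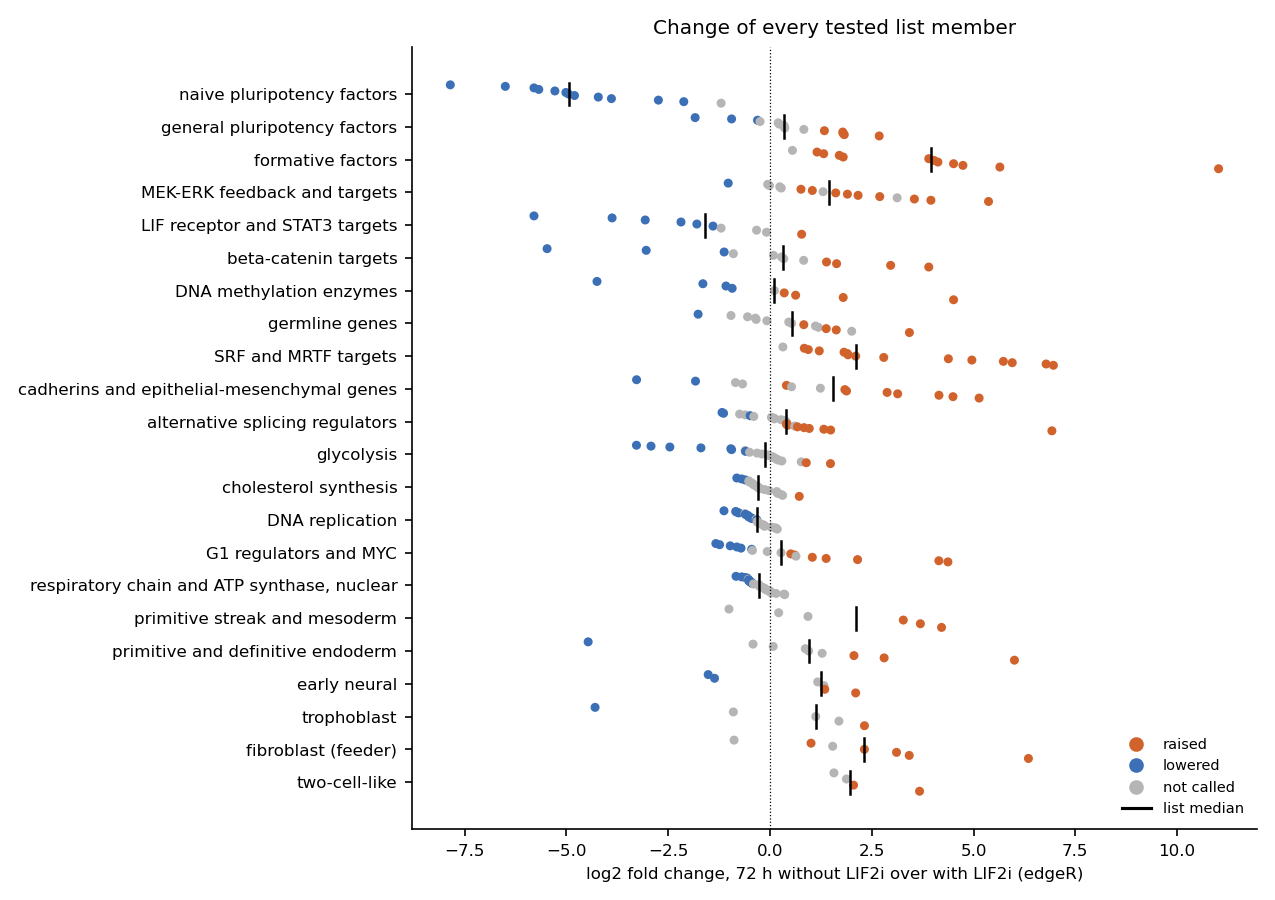
Log2 fold change (x axis, without LIF2i over with LIF2i, edgeR) of every tested member of the 22 lists (rows), 1 point per gene, with the list median as a bar. Naive factors lie to the left, with a median of -4.95, and formative factors and SRF targets to the right, with medians of 3.96 and 2.10, against 0.01 over all genes.

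Naive pluripotency factors fell steeply. Of 13 listed, 12 fell and none rose (92.3% lowered, against 19.7% of all genes tested), with a median log2 change of -4.95. Esrrb, an orphan nuclear receptor of the naive network, stood at 608, 281 and 376 TPM with LIF2i and at 11, 15 and 15.1 TPM without. The zinc finger factor Klf4 stood at 211, 71.3 and 116 TPM and then at 2.06, 1.7 and 4.12 TPM. Prdm14, which represses de novo methyltransferases and ERK signalling genes, went from 40.1, 22.2 and 25.7 TPM to 0, 0.204 and 0.154 TPM. In all 3 genes the lowest library with LIF2i was far above the highest without, although with LIF2i replicate 1 held more than replicates 2 and 3. Tfcp2l1 stood at 264, 71 and 83.6 TPM with LIF2i, where replicate 1 was over 3 times replicate 2, and at 2.11, 2.94 and 2.34 TPM without. Tcl1, a cofactor of the kinase AKT, showed even replicates, at 195, 168 and 166 TPM and then 1.01, 2.38 and 3.25 TPM. It changed by -6.5 ± 0.4 (edgeR adjusted p 9.2e-06). Klf2, Nr5a2 and Nr0b1 fell by 5.01 ± 0.36, 4.8 ± 0.25 and 3.89 ± 0.41 on the log2 scale, with edgeR adjusted p of 2.3e-05, 3.8e-06 and 0.00016.

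Nanog and Klf5 had the smallest log2 falls of the 12 lowered naive factors. Nanog, a homeodomain factor, stood at 816, 444 and 482 TPM with LIF2i and at 206, 90 and 123 TPM without, a change of -2.12 ± 0.2 (edgeR adjusted p 5.2e-05). Klf5 went from 178, 64.7 and 87.7 TPM to 12.7, 12 and 22.5 TPM, a change of -2.74 ± 0.31 (edgeR adjusted p 0.00026). The groups did not overlap in either. Gbx2, a homeobox gene downstream of LIF, was the naive factor not called: it was low throughout, at 5.26, 2.49 and 3.52 TPM and 2.69, 1.58 and 1.09 TPM, with a change of -1.2 ± 0.45 (edgeR adjusted p 0.057), and 43.5% of its exonic bases are shared with another gene. Among the 16 alternative fits the number of naive factors lowered stayed between 12 and 13.

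The factors shared by naive and later pluripotent states moved in both directions. Of 15 listed, 5 rose, 3 fell and 7 were not called, so that 33.3% were raised and 20% lowered, against 21.1% and 19.7% of all genes tested. Pou5f1, which encodes OCT4, was listed at 1490.2, 1866 and 1704 TPM with LIF2i and 1543, 1199 and 1394 TPM without, and the groups overlapped (log2 change -0.24 ± 0.23, edgeR adjusted p 0.42). Without the replicate 1 library with LIF2i, and without all replicate 1 libraries, it was called as lowered, at -0.54 and -0.53 (edgeR adjusted p 0.0056 and 0.0078). Sox2, its partner on DNA, stood at 242, 359 and 405 TPM and then 72.7, 130.4 and 93.3 TPM. It was thus lower in every library without LIF2i (-1.84 ± 0.26, edgeR adjusted p 0.00059). The RNA-binding proteins Lin28a and Lin28b, which block maturation of let-7 microRNAs, rose together. Lin28a went from 91.3, 75.4 and 92.7 TPM to 481, 258 and 269.9 TPM and Lin28b from 5.71, 5.34 and 6.44 TPM to 32.9, 13.2 and 19.3 TPM, by 1.82 ± 0.23 and 1.8 ± 0.22, with edgeR adjusted p of 0.00033 and 0.00027. Utf1, a chromatin-bound factor, climbed from 51.8, 73.6 and 94.5 TPM to 395, 612 and 467 TPM (2.68 ± 0.31, edgeR adjusted p 0.00029). Tdgf1, a co-receptor of NODAL, and Sall4 were also called as lowered, but without either replicate 2 or either replicate 3 library Sox2 was the 1 lowered gene of the list. High Pou5f1, Sox2 and Nanog with LIF2i match the label of embryonic stem cells.

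**Figure D3:**
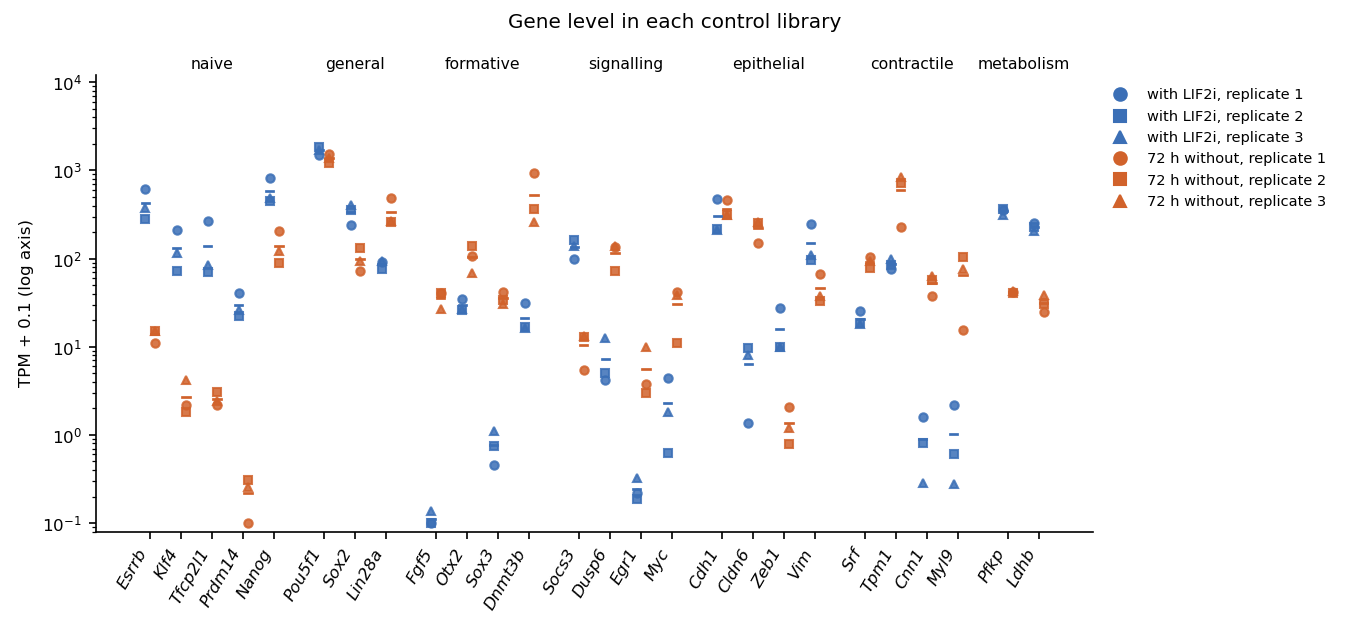
TPM + 0.1 (y axis, log axis) of 26 genes (x axis) in each of the 6 control libraries, blue with LIF2i and orange after 72 h without, with a symbol per replicate and a bar at the group mean. The groups separate in naive, formative and contractile genes and overlap for Pou5f1 and Cdh1.

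Formative factors rose. Of 12 listed, 11 rose and none fell (91.7% raised, against 21.1% of all genes tested), and this count was 10 or 11 in the 16 alternative fits. Fgf5, a growth factor gene that marks the formative epiblast, was listed at 0, 0 and 0.0363 TPM with LIF2i and at 40.2, 40.5 and 26.5 TPM without. With LIF2i it held 1 count over all 3 libraries, against 2777 without, a ratio of 2655 with a 95% exact counting interval of 476 to 104889. The POU factor Pou3f1 went from 3.56, 2.55 and 2.12 TPM to 52.9, 46.3 and 43.3 TPM and the zinc finger factor Sall2 from 3.28, 1.97 and 1.79 TPM to 48.8, 36.9 and 27 TPM. The groups were far apart, and the changes were 4.12 ± 0.37 and 4.03 ± 0.3, with edgeR adjusted p of 7.5e-05 and 2e-05. Sox3, a relative of Sox2, stood at 0.361, 0.646 and 1.02 TPM with LIF2i and 42.1, 33.8 and 30.8 TPM without (5.65 ± 0.42, edgeR adjusted p 1.9e-05). Otx2, a homeodomain factor already present in naive cells, started from 34.8, 26.2 and 26.9 TPM and reached 106, 138 and 68.5 TPM, a smaller change of 1.7 ± 0.2 (edgeR adjusted p 0.0002). Grhl2, an epithelial enhancer factor, went from 0.0266, 0.955 and 1.13 TPM to 14.7, 15.9 and 15.1 TPM, a change of 4.74 ± 0.68 (edgeR adjusted p 0.0012). With LIF2i it was nearly absent from replicate 1, unlike replicates 2 and 3.

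Enzymes of DNA methylation moved in both directions, with 4 of the 9 listed raised and 4 lowered, or 44.4% each, against 21.1% and 19.7% of all genes tested. Dnmt3b, a de novo methyltransferase, stood at 31.1, 16.7 and 16.1 TPM with LIF2i and at 934, 363 and 263 TPM without. Its relative Dnmt3a went from 47.5, 30.8 and 27.9 TPM to 297, 104 and 76.1 TPM. Both rose in every pair, by 4.51 ± 0.26 and 1.8 ± 0.28, with edgeR adjusted p of 5.3e-06 and 0.0012, and in both replicate 1 without LIF2i was the highest library. The maintenance machinery moved the other way: Dnmt1 went from 163, 129.9 and 142 TPM to 105, 71.8 and 67.1 TPM and its recruiter Uhrf1 from 502, 268 and 271 TPM to 191, 131 and 145 TPM (-0.93 ± 0.16, and -1.08 ± 0.12, edgeR adjusted p 0.0019 and 0.00012). The demethylating dioxygenases were split. Tet2 dropped from 82.3, 17.9 and 31.1 TPM to 2.25, 2.00 and 2.8 TPM and Tet1 from 125, 135 and 125 TPM to 59.4, 62.6 and 35.9 TPM, while Tet3, the least abundant with LIF2i, rose from 4.08, 2.29 and 2.79 TPM to 6.78, 4.49 and 3.96 TPM. The changes were -4.25 ± 0.46, -1.65 ± 0.24 and 0.63 ± 0.15, with edgeR adjusted p of 0.00028, 0.00072 and 0.0095. Without the replicate 2 library of the withdrawn group Tet3 was not called and 2 of the list rose.

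Genes of the LIF receptor and STAT3 arm mostly fell. Of 10 listed, 6 fell and 1 rose, so that 60% were lowered against 19.7% of all genes tested. The receptor chains Lifr and Il6st (gp130) went from 28.9, 20.3 and 19.8 TPM to 8.19, 6.4 and 4.95 TPM and from 41.8, 26.3 and 30.3 TPM to 13.4, 11.5 and 14.4 TPM. Stat3, the factor they activate, went from 134, 63.5 and 71.4 TPM to 20.8, 23.8 and 31.9 TPM, and Socs3, a feedback inhibitor and direct STAT3 target, from 99.2, 162 and 140.1 TPM to 5.29, 12.9 and 13.2 TPM. No library of one group reached the range of the other in these 4 genes. Socs3 changed by -3.88 ± 0.17, Lifr by -2.19 ± 0.16, Stat3 by -1.8 ± 0.22 and Il6st by -1.4 ± 0.15, each at an edgeR adjusted p no larger than 0.000254. The rise of Junb (0.78 ± 0.27, edgeR adjusted p 0.045) was called in 9 of 16 alternatives and not without the block (edgeR adjusted p 0.29).

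Feedback and target genes of MEK and ERK rose more often than they fell. Of 16 listed, 9 rose, 1 fell and 6 were not called, which makes 56.3% raised and 6.25% lowered, against 21.1% and 19.7% of all genes tested. Dusp6, a phosphatase that removes the activating phosphates of ERK, stood at 4.15, 4.94 and 12.3 TPM with LIF2i and 136, 71.6 and 138 TPM without, and Dusp4 at 4.93, 7.97 and 6.95 TPM and 92.4, 65.4 and 88.5 TPM. The receptor feedback inhibitor Spry4 went from 1.96, 1.67 and 2.28 TPM to 19.8, 5.88 and 19.1 TPM. Egr1, an immediate early transcription factor, rose from 0.117, 0.0885 and 0.222 TPM to 3.7, 2.9 and 9.96 TPM and Etv1, an ETS factor, from 4.3, 2.00 and 2.01 TPM to 19.3, 9.68 and 14.7 TPM. The changes were 3.95 ± 0.5, 3.55 ± 0.28, 2.7 ± 0.44, 5.37 ± 0.49 and 2.16 ± 0.25, each at an edgeR adjusted p no larger than 0.0017. In all 5 the groups were separate, and replicate 2 was the lowest library after withdrawal. Etv5 and Etv4, relatives of Etv1, were not called, at 0.28 ± 0.16 and 1.3 ± 0.51, edgeR adjusted p 0.2 and 0.078. Without the block 6 of the list rose.

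Targets of beta-catenin did not share a direction. Of 12 tested, 4 rose, 3 fell and 5 were not called, so that 58.3% were called against 40.7% of all genes tested. Rnf43, 1 of the 4 raised, was not called with a length offset (0.92 ± 1.12, edgeR adjusted p 0.56). Lef1 and Tcf7, which are themselves DNA-binding partners of beta-catenin, rose, Lef1 from 0.517, 1.12 and 0.443 TPM to 19.6, 7.61 and 7.54 TPM and Tcf7 from 53.9, 30.1 and 32.4 TPM to 119.6, 95.1 and 91.9 TPM. Cdx1, a homeobox gene, fell from 6.08, 1.52 and 2.98 TPM to 0, 0 and 0.237 TPM, and Notum, a secreted WNT deacylase, from 13, 5.91 and 4.22 TPM to 1.61, 1.26 and 1.27 TPM. Lef1 changed by 3.9 ± 0.46, Tcf7 by 1.39 ± 0.12, Cdx1 by -5.47 ± 1.33 and Notum by -3.04 ± 0.65, with edgeR adjusted p between 4.3e-05 and 0.0099. Notum shares 38.1% of its exonic bases with another gene. Axin2, a widely used beta-catenin reporter gene, was at 9.19, 3.3 and 7.21 TPM and 6.88, 5.81 and 12.6 TPM, with overlapping groups (0.34 ± 0.2, edgeR adjusted p 0.21).

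Contractile and cytoskeletal targets of the actin-responsive factor SRF rose. Of 15 listed, 14 rose and none fell, that is 93.3% raised against 21.1% of all genes tested. Srf itself stood at 25.1, 18.5 and 18.2 TPM with LIF2i and 103, 77.7 and 93.1 TPM without. Calponin 1, Cnn1, an actin-binding protein of smooth muscle, went from 1.48, 0.706 and 0.184 TPM to 37.5, 56.7 and 62.6 TPM, and Tpm1, a tropomyosin that coats actin filaments, from 75.8, 83.9 and 97.8 TPM to 226, 729 and 840.1 TPM. Srf replicates were close, whereas in Tpm1, as in the myosin light chain gene Myl9 at 2.06, 0.514 and 0.176 TPM and 15.5, 105 and 76.7 TPM, replicate 1 without LIF2i was by far the lowest of its group. Actg1, cytoplasmic gamma-actin, rose from 1605, 321 and 387 TPM to 2703, 1978 and 2533 TPM, while Actb, beta-actin, at 5732, 679 and 891 TPM and 3751, 1303 and 1549 TPM, was the member not called, with replicate 1 with LIF2i the highest library. The matricellular genes Ccn1 and Ccn2 went from 3.15, 2.06 and 2.09 TPM to 34.3, 91.7 and 150.4 TPM and from 7.42, 3.07 and 4.38 TPM to 107, 97.9 and 98.8 TPM. Changes were 2.1 ± 0.14 for Srf, 6.96 ± 0.71 for Myl9, 4.38 ± 0.19 for Ccn2 and 1.92 ± 0.37 for Actg1, with edgeR adjusted p of 9e-06, 0.00015, 1.8e-06 and 0.004. Without all replicate 2 libraries 9 of the list rose, and without the replicate 1 library with LIF2i all 15. Myl9, Cnn1 and related genes are also expressed by fibroblasts. The 10 feeder fibroblast markers summed to 6.37 to 13.4 TPM with LIF2i and 26.1 to 35.8 TPM without. Of the 7 tested 5 rose (71.4%, against 21.1% of all genes tested) and none fell. Thy1, a surface glycoprotein, gave 6.07, 4.69 and 3.86 TPM and 24.9, 22.4 and 21.7 TPM of these sums. The other raised markers were low. The collagens Col1a1 and Col1a2 went from 1.25, 0.379 and 0.163 TPM to 1.82, 0.827 and 0.539 TPM and from 0, 0.153 and 0.273 TPM to 0.732, 0.909 and 1.02 TPM, and Dcn, the matrix protein decorin, from 0, 0.287 and 0.102 TPM to 2.56, 0.778 and 0.636 TPM. Twist2, a mesenchymal factor, was listed at 0 in each library with LIF2i and at 1.01, 0.253 and 0.921 TPM without, at least 3.37-fold above the floor of 3 counts per library. Col1a2 and Dcn rose by 3.42 ± 0.87 and 3.11 ± 1.05 (edgeR adjusted p 0.012 and 0.04). Col1a1, whose groups overlapped in TPM, rose by 1.01 (edgeR adjusted p 0.047, and 0.39 without the block). Of 16 alternatives, Col1a1 was called in 5, Dcn in 7 and Col1a2 in 14. Over the alternatives 2 to 5 of the markers rose, 2 with the 6 control libraries alone, where 1 fell, and 3 without the block. The part of such cells in the contractile genes was not tested.

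Of 14 cadherin and epithelial-mesenchymal genes, 8 rose and 2 fell, which makes 57.1% raised and 14.3% lowered, against 21.1% and 19.7% of all genes tested. The 8 include Cdh2, the N-cadherin of mesenchymal and neural cells (1.84 ± 0.23, edgeR adjusted p 0.00027), at 2.24, 0.390 and 1.00 TPM and 7.96, 1.75 and 3.55 TPM. Its groups overlapped, and without the block it was not called (edgeR adjusted p 0.077) and 6 of the list rose. The tight junction claudins Cldn6 and Cldn7 went from 1.26, 9.66 and 7.91 TPM to 151, 256 and 259 TPM and from 2.96, 6.98 and 6.1 TPM to 58.9, 125 and 154 TPM. Cdh3, P-cadherin, went from 3.14, 7.02 and 6.05 TPM to 47.9, 46.4 and 44.3 TPM and Epcam from 15.4, 58.6 and 54.8 TPM to 252, 367 and 279 TPM. Groups were separate in all 4, which rose by 5.14 ± 0.48, 4.15 ± 0.28, 3.14 ± 0.27 and 2.88 ± 0.37, each at an edgeR adjusted p no larger than 0.00053. Cdh1, E-cadherin, was abundant in both groups, at 479, 214 and 212 TPM and 463, 312 and 314 TPM, and its small rise of 0.4 ± 0.13 (edgeR adjusted p 0.034) was called in 6 of 16 alternatives. The mesenchymal genes that fell were Zeb1, a repressor of epithelial genes, from 27.5, 9.72 and 9.76 TPM to 1.97, 0.696 and 1.09 TPM, and Vim, the intermediate filament vimentin, from 246, 96.9 and 111 TPM to 67.1, 32.7 and 37.4 TPM. They changed by -3.28 ± 0.23 and -1.83 ± 0.13, edgeR adjusted p 1.3e-05 and 1.3e-05.

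Among 24 regulators of alternative splicing, 9 rose, 3 fell and 12 were not called, so that 50% were called against 40.7% of all genes tested and 12.5% lowered against 19.7%. Esrp1, which directs epithelial splice patterns, went from 0.181, 0.451 and 0.398 TPM with LIF2i to 37, 55.3 and 56.7 TPM without, the largest change of the list (6.92 ± 0.25, edgeR adjusted p 1.1e-06). Qk, quaking, and Ptbp3 fell, from 267, 89.7 and 100.4 TPM to 103, 57.9 and 56.3 TPM and from 129, 29.8 and 34.1 TPM to 32.6, 18.3 and 21.8 TPM. Ptbp2, at 18.6, 17.9 and 22 TPM and 49.9, 33.4 and 39.4 TPM, and Khdrbs1, at 78.4, 51.6 and 64.6 TPM and 147, 103 and 116 TPM, rose in every pair. Changes of Qk, Ptbp3, Ptbp2 and Khdrbs1 were -1.14 ± 0.14, -1.18 ± 0.18, 1.32 ± 0.28 and 0.84 ± 0.17, with edgeR adjusted p of 0.00021, 0.00095, 0.0054 and 0.004. Each of these 5 genes was called in all 16 alternatives, but the count of raised regulators was 4 without the block, 5 without the replicate 3 library of the withdrawn group and 3 without all replicate 3 libraries.

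Of 22 glycolysis genes 7 fell, 2 rose and 13 were not called, so that 40.9% were called against 40.7% of all genes tested, with a median log2 change of -0.13. The hexokinases that trap glucose fell, Hk1 from 168, 109 and 91.7 TPM to 23.4, 25.8 and 16.8 TPM and Hk2 from 435, 219 and 247 TPM to 163, 55.6 and 83.3 TPM. Pfkp, the platelet-type phosphofructokinase, fell from 351, 367 and 311 TPM to 42.1, 40.7 and 42.5 TPM and the muscle-type Pfkm rose from 23.6, 32.7 and 28.5 TPM to 64.7, 53 and 48.6 TPM. All 4 had groups that did not overlap, with changes of -2.46 ± 0.17, -1.7 ± 0.17, -2.92 ± 0.22 and 0.89 ± 0.17 and edgeR adjusted p of 1.2e-05, 7.3e-05, 1.7e-05 and 0.0027. Ldhb, the lactate dehydrogenase subunit typical of oxidative tissue, fell from 256, 227 and 205 TPM to 24.7, 30.2 and 38.4 TPM (-3.28 ± 0.36, edgeR adjusted p 0.00021). Eno3, muscle enolase, rose from 14.8, 9.47 and 11.1 TPM to 40.9, 31.8 and 32.2 TPM (1.49 ± 0.18, edgeR adjusted p 0.00021). Without the block, and without all replicate 2 libraries, 4 of the list fell.

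Of 32 nuclear genes of the respiratory chain and ATP synthase, 12 fell, none rose and 20 were not called, so that 37.5% were lowered against 19.7% of all genes tested, with a median log2 change of -0.27. The complex II genes Sdha, Sdhb and Sdhc fell by 0.55 ± 0.12, 0.61 ± 0.12 and 0.56 ± 0.11 on the log2 scale, with edgeR adjusted p of 0.0052, 0.0033 and 0.0028. Sdhd, the other complex II gene, went the other way, at 0.36, and was not called. Without the block Sdha and Sdhb were not called (edgeR adjusted p 0.066 and 0.11). Sdhc, a membrane anchor of the complex, stood at 172, 169 and 154 TPM with LIF2i and 117, 109 and 132 TPM without, and the groups did not overlap. The count moved with the setting: 21 fell without the replicate 1 library with LIF2i, 6 without either replicate 3 library, and 2 without the block. Many of these genes have short transcripts: Cox6c was at 96.9, 809 and 783 TPM with LIF2i and 123, 611 and 611 TPM without, so replicate 1 was far lower in both groups (-0.26 ± 0.21, edgeR adjusted p 0.36). Of 20 genes of cholesterol synthesis, 3 fell, 1 rose and 16 were not called, which makes 20% called against 40.7% of all genes tested. Over the alternatives 0 to 5 of them fell, 0 without all replicate 2 libraries and 5 without all replicate 1 libraries, and 0 to 3 rose, 3 of them without the replicate 2 library with LIF2i.

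Of 27 replication genes, 13 fell, none rose and 14 were not called, so that 48.1% were lowered against 19.7% of all genes tested, with a median log2 change of -0.32. Rrm2, a ribonucleotide reductase subunit, stood at 215, 229 and 229 TPM and then 135, 81.1 and 114 TPM, Prim1, a primase subunit, at 114, 82.4 and 85.9 TPM and 60.4, 50.4 and 50.3 TPM, and Cdc45, a part of the replicative helicase, at 48.7, 46.9 and 45.1 TPM and 24.6, 28.6 and 29.6 TPM. Their groups did not overlap, and they changed by -1.13 ± 0.25, -0.84 ± 0.17 and -0.81 ± 0.14, with edgeR adjusted p of 0.0066, 0.0041 and 0.0019. Without the block 3 of the list fell. Without the replicate 2 library with LIF2i 8 fell, and without that of the withdrawn group, or either replicate 3 library, 7.

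Regulators of the G1 phase moved in both directions. Of 17, 7 rose (41.2%) and 6 fell (35.3%), against 21.1% and 19.7% of all genes tested. The D-type cyclins moved apart, with Ccnd2 going from 0.523, 0.0809 and 0.408 TPM to 14, 2.94 and 3.8 TPM and Ccnd3 from 271, 163 and 152 TPM to 69.2, 85.5 and 65.9 TPM. Cdk6, a kinase partner of these cyclins, rose from 8.27, 7.61 and 11.4 TPM to 45.1, 28 and 32.5 TPM, and E2f1, which activates S-phase genes, fell from 39.2, 36 and 38.4 TPM to 17.3, 18.9 and 14.1 TPM. Myc, a growth regulator, went from 4.3, 0.530 and 1.73 TPM to 41.9, 10.9 and 38.4 TPM, with replicate 2 the lowest library in both groups. The log2 changes were 4.37 ± 0.22, -1.33 ± 0.15, 1.38 ± 0.13, -1.24 ± 0.17 and 4.15 ± 0.36, all at an edgeR adjusted p no larger than 0.00053. Cdkn1c, an imprinted inhibitor of cyclin-dependent kinases, rose from 10.6, 9.5 and 11 TPM to 86.2, 29.2 and 30.6 TPM (2.15 ± 0.25, edgeR adjusted p 0.00021) and shares 30.7% of its exonic bases with another gene. Without the block 4 of the list rose, and without either replicate 2 library 3 fell.

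Most markers of later lineages were low at 72 h. The 10 primitive streak and mesoderm markers summed to 9.23 to 32.8 TPM without LIF2i, against 6.28 to 11.2 TPM with it, and 3 of the 6 tested rose. Fgf8, a streak growth factor, went from 0, 1.16 and 0.765 TPM to 13.8, 2.68 and 17.8 TPM and Wnt3, which induces the streak, from 0.0868, 0.371 and 0.273 TPM to 4.38, 0.525 and 3.93 TPM. In both, replicates 1 and 3 stood above replicate 2 after withdrawal, and without either replicate 3 library none of the list was called. Mixl1, the third raised, was at 0, 0.0604 and 0 TPM and 0.788, 0.265 and 0.696 TPM. Of 9 endoderm genes tested, 3 rose and 1 fell, and the 10 genes of the list summed to 10.2 to 41.7 TPM with LIF2i and 14.6 to 43.6 TPM without, so the ranges overlapped. The raised genes, an endocytic adaptor and receptor set, were Dab2, from 4.99, 1.35 and 0.901 TPM to 22.1, 9.12 and 6.31 TPM, Cubn, from 0, 0.0223 and 0.0210 TPM to 2.95, 0.566 and 0.518 TPM, and Amn, from 1.13, 0.895 and 0.691 TPM to 9.14, 2.2 and 3.84 TPM. The endoderm regulators Gata6 and Sox17 were under 1 TPM in every library of both groups. Hnf4a, the lowered one, fell from 31.5, 2.52 and 5.04 TPM to 0.398, 0.173 and 0.172 TPM, with replicate 1 highest. The 10 neural markers summed to 47.2 to 203 TPM with LIF2i and 55.1 to 115 TPM without. Of the 6 tested, Nes, the filament protein nestin, rose from 15.3, 14.8 and 11.5 TPM to 36.4, 33 and 42.6 TPM and Map2 from 2.66, 2.31 and 2.67 TPM to 12.1, 5.36 and 6.38 TPM, while Tubb3 and Sox1 were called as lowered in the blocked fit and not without the block (edgeR adjusted p 0.16 and 0.6). Tfap2c, a factor of trophoblast, germ cells and naive cells, fell from 55.2, 40.6 and 48.1 TPM to 1.28, 3.44 and 3.14 TPM, while Krt7, a keratin of trophoblast and other epithelia, rose from 0, 0.691 and 0.396 TPM to 1.32, 1.86 and 2.81 TPM (2.32 ± 0.75, edgeR adjusted p 0.034). They were the 1 lowered and the 1 raised of 5 trophoblast markers tested, and the 10 listed summed to 47.1 to 58.6 TPM with LIF2i and 8.35 to 11.4 TPM without. Krt7 was not called without the block, and without the replicate 1 library with LIF2i 2 rose and 2 fell. Called were 50% of the streak, 44.4% of the endoderm, 66.7% of the neural and 40% of the trophoblast genes tested, in lists of 5 to 9, against 40.7% of all genes tested. The placental genes Tpbpa and Prl3d1 were listed at 0 in all 6 libraries. The changes were 2.8 ± 0.25 for Dab2, 1.34 ± 0.22 for Nes and -4.3 ± 0.32 for Tfap2c, edgeR adjusted p 4e-05, 0.0012 and 1.8e-05.

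Genes of the germ line, many of which are held silent by promoter methylation, had 4 of 15 tested members raised and 1 lowered, a called share of 33.3% that is below the 40.7% of all genes tested. Tdrd1, a tudor protein of the piRNA pathway, rose from 0.387, 0.318 and 0.333 TPM to 7.05, 3.00 and 2.42 TPM (3.42 ± 0.31, edgeR adjusted p 4.5e-05). Mael, of the same pathway, rose from 11.9, 7.16 and 6.19 TPM to 35.3, 23.8 and 11.6 TPM, with the replicates of the second group spread over 3-fold. Hormad1, a meiotic chromosome axis protein, fell from 11.6, 10.1 and 8.3 TPM to 3.21, 3.68 and 2.52 TPM (-1.76 ± 0.29, edgeR adjusted p 0.0014). Of 4 tested genes typical of early cleavage-stage embryos 2 rose (50%, against 21.1% of all genes tested). They were Zscan4f, at 1.6, 0.446 and 1.05 TPM and 2.54, 5.43 and 5.41 TPM, and Usp17le, at 0.239, 0.0450 and 0.0561 TPM and 1.6, 1.25 and 0.856 TPM. The 10 genes of that list summed to 1.03 to 3.21 TPM with LIF2i and 5.81 to 12.1 TPM without. Zscan4f is 1 of several near-identical copies between which reads can be split, so its level is uncertain. It was not called without either replicate 2 library or the replicate 3 library of the withdrawn group, without all replicate 2 libraries 0 were called, and without the replicate 1 library with LIF2i all 4.

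By difference in mean TPM, the list members Actg1, Hnrnpa2b1, Tpm1, Dnmt3b and Utf1 were among the 10 most raised genes. Of those in no list, Bst2, a membrane protein known as tetherin, went from 12.9, 131 and 92.6 TPM to 327, 877 and 774 TPM and Pfn1, profilin, from 1082, 411 and 445 TPM to 1498, 897 and 1047 TPM. Both were higher in every pair (3.29 ± 0.36, and 0.9 ± 0.15, edgeR adjusted p 0.00023 and 0.0014), but without the block Pfn1 was not called (edgeR adjusted p 0.095). On the falling side Ckb, creatine kinase B, went from 1146, 531 and 624 TPM to 163, 80.2 and 121 TPM, Upp1, uridine phosphorylase, from 1066, 752 and 648 TPM to 203, 254 and 178 TPM and Gpx4, a peroxidase that reduces lipid hydroperoxides, from 666, 1293 and 1118 TPM to 208, 459.9 and 319 TPM. The tetraspanin Cd9 went from 754, 742 and 638 TPM to 78.7, 151 and 142 TPM, and Chchd10, a small mitochondrial protein, from 545, 1014 and 1116 TPM to 269.9, 289 and 257 TPM. These 5 changed by -2.69 ± 0.16, -1.87 ± 0.3, -1.72 ± 0.18, -2.65 ± 0.2 and -1.6 ± 0.29, each at an edgeR adjusted p no larger than 0.00254, and each was called in all 16 alternatives. The chaperone Hsp90aa1 was at 12909, 2713 and 3313 TPM and 2888, 1428 and 1474 TPM, a fall of 1.21 ± 0.17 (edgeR adjusted p 0.00056) in which replicate 1 with LIF2i stood far above replicates 2 and 3 and which was not called without the block (edgeR adjusted p 0.078). Dppa5a, a stem cell RNA-binding protein, was the most abundant of these genes in replicates 2 and 3 with LIF2i, at 1389, 7556 and 6753 TPM, and stood at 1285, 2635 and 2325 TPM without. Its lower level in pair 1 was slight, and the call (edgeR adjusted p 0.013) was kept in 8 of 16 alternatives.

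Within genes, the mix of transcripts was also compared, as the percentage of the gene's TPM that each annotated transcript takes. Tested were 14307 transcripts of 5526 genes with a mean of at least 5 TPM in both groups, for transcripts with a mean share of at least 10% over the 6 libraries, by limma on the log2 odds of the share, with 0.5 TPM added to both sides and the replicate number as a block. At a Benjamini-Hochberg adjusted p under 0.05, 17 transcripts (0.119%) of 13 genes were called, and 1561 had an unadjusted p under 0.05. In 4 genes, Tpm1, Rps24, Wbp2 and Acot7, 1 called transcript gained and another lost at least 10 percentage points. The other 9 genes are described because their transcripts were called, and were named after their values had been seen. Shares of the 2 groups did not overlap in 1917 transcripts (13.4%). These calls were fragile: fitted on the 6 control libraries alone the test called 0, with 1085 at an unadjusted p under 0.05, and leaving out single libraries left 0 to 7. edgeR's test of transcript usage on counts called 13, of which 5 were among the 17. A share is estimated from reads that fit several transcripts, so it depends on the annotation.

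**Figure D4:**
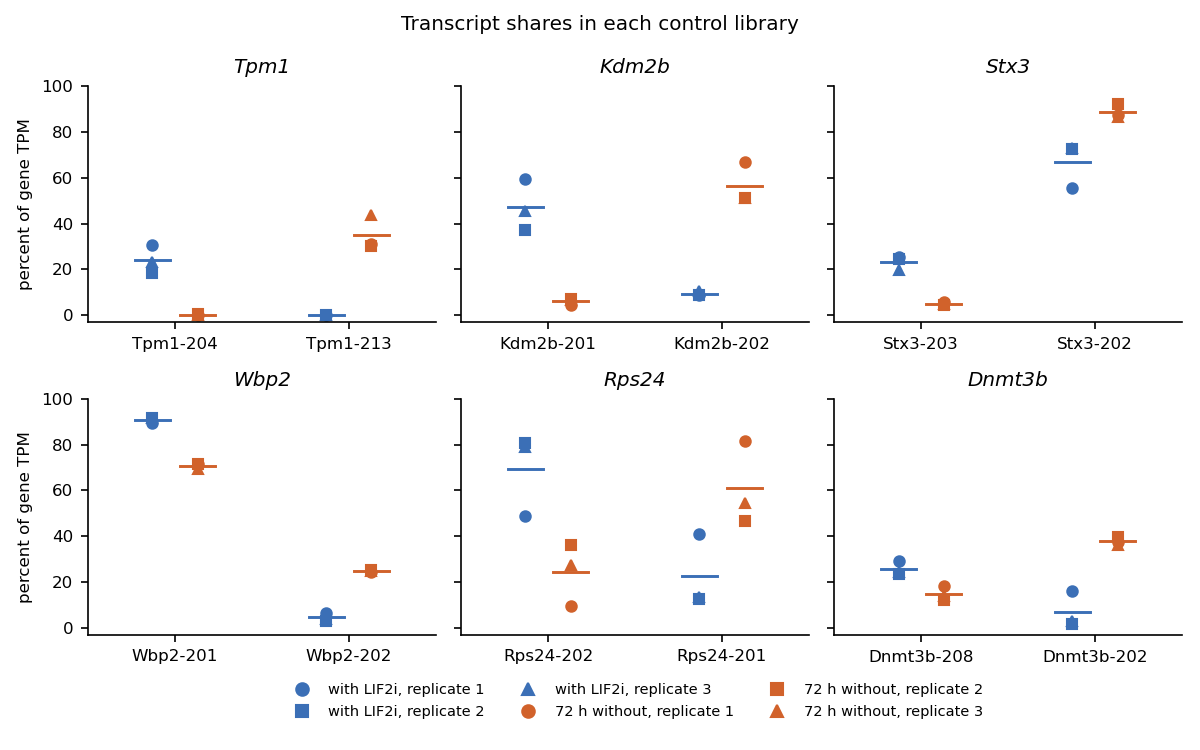
Share of gene TPM (y axis, percent) of 2 transcripts in each of 6 genes, with a symbol per library, blue with LIF2i and orange after 72 h without, and a bar at the group mean. Tpm1-213 goes from 0 to between 30.4% and 43.6%, Kdm2b-202 from at most 10.7% to at least 51.3%, and Rps24 shows the wide gap between replicate 1 and the others.

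Tpm1 moved in share toward its upstream start. Transcript Tpm1-204, which starts inside the gene and encodes a short tropomyosin, took 30.6, 18.6 and 23.2% of Tpm1 TPM with LIF2i and 0, 0.697 and 0% without. Tpm1-213, which starts upstream and encodes a long tropomyosin, took 0, 0 and 0% and then 31, 30.4 and 43.6%. No library of one group reached the range of the other, and the log2 odds changed by 6.52 ± 0.38 (limma adjusted p 0.015) for Tpm1-213 and -7.2 ± 0.78 (limma adjusted p 0.048) for Tpm1-204. Without the block the adjusted p were 0.0039 and 0.038, and Tpm1-213 was called in 9 of 17 alternatives, more than any other transcript. The annotated transcripts also end in different exons. One coding exon that the long form has and the short form lacks, exon 2 of 9 of Tpm1-213, lies at chr9:67047786-67047911 on the minus strand (GRCm38, GENCODE M21) and spans 126 bases, all coding. It is shown in capitals between 15 bases of the neighbouring exons, from the annotated transcript.
Tpm1-213 exon 2: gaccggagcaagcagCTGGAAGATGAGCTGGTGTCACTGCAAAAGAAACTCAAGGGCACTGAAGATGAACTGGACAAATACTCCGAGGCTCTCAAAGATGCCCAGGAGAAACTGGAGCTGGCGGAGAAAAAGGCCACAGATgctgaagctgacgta

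In Kdm2b the distal start gained share and an internal start lost it, and of these only the gain was called. The gene encodes a histone demethylase that binds CpG-rich DNA and recruits Polycomb proteins, and its short form, made from the internal start, lacks the demethylase domain. Kdm2b-202, the long form, took 8.66, 8.73 and 10.7% of Kdm2b TPM with LIF2i and 66.7, 51.3 and 51.3% without, while Kdm2b-201, the short form, took 59.3, 37.2 and 45.5% and then 4.41, 7.31 and 6.51%. Groups were separate in both forms, with Kdm2b-202 changing by 3.55 ± 0.37 in log2 odds (limma adjusted p 0.048, and 0.038 without the block) and called in 5 of 17 alternatives. Total Kdm2b was at 102, 54.7 and 44.1 TPM with LIF2i and 196, 70.9 and 81.4 TPM without. The first 12 exons of Kdm2b-202 are absent from Kdm2b-201. The 250 bases before each start, from RefSeq on GRCm38.p6 and on the minus strand, are shown as the sequences upstream of both forms. They lie at chr5:122989100-122989349 for the distal start and chr5:122900351-122900600 for the internal one. Capitals mark each CG, the dinucleotide that DNA methyltransferases modify. Methylation was not measured here, and its part in these shares was not tested. It occurs 27 times in the distal and 38 times in the internal sequence, against a median of 6 over 32851 mouse promoter sequences of the same length, of which 8.56% hold as many as the distal and 1.88% as many as the internal one. RefSeq lists a further Kdm2b start near each of these. The 250 bases before it hold 12 CG near the distal start and 36 near the internal one.
Kdm2b distal start: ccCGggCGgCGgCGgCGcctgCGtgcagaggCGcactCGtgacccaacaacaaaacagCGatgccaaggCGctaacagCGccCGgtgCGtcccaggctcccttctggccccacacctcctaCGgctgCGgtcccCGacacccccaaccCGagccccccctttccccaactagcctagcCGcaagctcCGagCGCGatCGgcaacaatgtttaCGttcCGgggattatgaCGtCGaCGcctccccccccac
Kdm2b internal start: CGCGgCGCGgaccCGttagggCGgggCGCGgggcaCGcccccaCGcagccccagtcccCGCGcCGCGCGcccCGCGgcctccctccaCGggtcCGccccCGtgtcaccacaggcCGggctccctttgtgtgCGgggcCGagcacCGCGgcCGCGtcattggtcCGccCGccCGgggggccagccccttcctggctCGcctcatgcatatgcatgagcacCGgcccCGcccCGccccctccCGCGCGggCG

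Stx3, a membrane fusion protein of the syntaxin family, changed the balance of transcripts with different 3′ ends. Its level was 18.3, 19.8 and 20.9 TPM with LIF2i and 94.7, 96.7 and 113 TPM without. Stx3-203 took 25.4, 24.7 and 19.6% and then 5.59, 4.62 and 4.89% of it, and Stx3-202 55.3, 72.4 and 73.2% and then 87.3, 92 and 86.7%. The groups were separate for both, and Stx3-203 changed by -2.48 ± 0.27 in log2 odds (limma adjusted p 0.048, called in 2 of 16 alternatives). In TPM, Stx3-203 stood at 4.66, 4.88 and 4.09 with LIF2i and 5.29, 4.47 and 5.53 without, with overlapping groups, so its share fell as the rest of the gene rose. The transcripts differ in the whole of exons 9, 10 and 11. The last of these holds 0 coding bases in both, and exon 10 spans 114 bases in Stx3-202 and 83 in Stx3-203. Exon 9, where both have the same length, is shown as the part that can be compared base by base. It lies at chr19:11783026-11783136 in Stx3-202 and at chr19:11782800-11782910 in Stx3-203, on the minus strand of GRCm38, and both versions span 111 coding bases. Read side by side without gaps they agree at 68 positions (61.3%), and capitals mark the positions that differ.
Stx3-202 exon 9: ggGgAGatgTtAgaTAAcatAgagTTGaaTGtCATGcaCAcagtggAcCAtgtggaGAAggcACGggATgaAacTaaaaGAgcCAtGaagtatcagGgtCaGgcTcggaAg
Stx3-203 exon 9: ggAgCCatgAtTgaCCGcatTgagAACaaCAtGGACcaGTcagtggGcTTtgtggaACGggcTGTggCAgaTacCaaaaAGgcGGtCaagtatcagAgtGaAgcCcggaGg

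Wbp2, a WW-domain binding coactivator, skipped an exon more often. Wbp2-202, which lacks exon 5, took 6.59, 3.21 and 4.03% with LIF2i and 24.6, 25.3 and 24.7% without, and Wbp2-201, which has it, 89.3, 91.6 and 91.5% and then 71.6, 71.4 and 69.5%. Replicates lay close together after withdrawal, and the groups did not overlap. The log2 odds changed by 2.74 ± 0.28 and -1.98 ± 0.21, both with a limma adjusted p of 0.048, in 6 of 17 and 4 of 17 alternatives called. The transcripts also differ in the length of the last exon. Exon 5 of Wbp2-201 lies at chr11:116080546-116080680 on the minus strand of GRCm38 and spans 135 coding bases, here in capitals between 15 bases of its neighbours.
Wbp2-201 exon 5: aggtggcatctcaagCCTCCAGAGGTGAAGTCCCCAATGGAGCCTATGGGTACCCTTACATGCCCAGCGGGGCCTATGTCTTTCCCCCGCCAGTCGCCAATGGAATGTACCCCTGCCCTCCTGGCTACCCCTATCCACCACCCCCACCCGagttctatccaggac

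Rps24, a ribosomal protein of the small subunit, was at 2006, 5053 and 4275 TPM with LIF2i and 3503, 3763 and 3609.9 TPM without. Rps24-202 took 48.9, 80.7 and 78.9% of the gene with LIF2i and 9.62, 36.2 and 27.7% without, and Rps24-201 41, 12.8 and 13.8% and then 81.6, 46.7 and 54.7%. The segments in which they differ hold 0 coding bases, so the coding sequence is the same in both as annotated. The shift had one direction in 3 of 3 pairs, but replicate 1 lay far from the others in both groups. Limma adjusted p were 0.025 and 0.025 with the block and 0.34 and 0.45 without.

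Several other calls rested on short annotated fragments. Zfp516-206, 348 bases long, took 60.4, 58.6 and 40.6% of a gene that fell as a whole from 70.4, 52.4 and 35.6 TPM to 14.4, 15.3 and 11.2 TPM, and was listed at 0 in each library without LIF2i. Usp46-204, from an internal start, took 42.1, 43.2 and 32.8% with LIF2i and was likewise listed at 0 in each library without. Slc7a1-203 (675 bases), Myo10-208 (463 bases), Etl4-213 (477 bases) and E2f7-203 (438 bases) gained share, to 17.9, 39.9 and 14.6%, 24.6, 36.3 and 25.4%, 18.3, 19.8 and 24.5% and 26, 18.1 and 14.3%. None of these 4 had exceeded 13.3% in a library with LIF2i. Ash2l-201 went from 4.91, 2.98 and 5.05% to 19.1, 13.4 and 16.7%, and Acot7-202 gained at the cost of Acot7-206, which took 4.53, 25.6 and 25.4% and then 0, 4.01 and 5.97%, with replicate 1 with LIF2i inside the range of the other group.

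A list of 40 genes known for isoforms regulated in pluripotent or epithelial cells was read separately. Of these, 26 passed the expression and share limits with 69 transcripts, and the calls among them were the pair in Tpm1. Dnmt3b came near: Dnmt3b-202 took 16.2, 1.76 and 3.18% of the gene with LIF2i and 37.5, 39.9 and 36.2% without, and Dnmt3b-208 29.4, 23.7 and 24.2% and then 18.3, 12.3 and 14.1%. Groups were separate in both, yet neither was called (limma adjusted p 0.12 and 0.14). Dnmt3b-202 contains exons 21 and 22, which Dnmt3b-208 lacks. Isoforms without this exon pair are known to lack methyltransferase activity. The exons lie at chr2:153683608-153683677 and chr2:153684359-153684477 on the plus strand of GRCm38 and are shown in capitals between 15 bases of their neighbours in Dnmt3b-202.
Dnmt3b-202 exon 21: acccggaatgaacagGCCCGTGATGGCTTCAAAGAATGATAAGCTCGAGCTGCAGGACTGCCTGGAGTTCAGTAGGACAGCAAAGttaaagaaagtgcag
Dnmt3b-202 exon 22: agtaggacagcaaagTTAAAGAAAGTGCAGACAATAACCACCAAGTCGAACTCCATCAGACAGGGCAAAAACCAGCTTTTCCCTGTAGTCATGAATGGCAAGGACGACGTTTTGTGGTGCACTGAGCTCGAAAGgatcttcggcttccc

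The groups were separate in 19 of the 69 transcripts (27.5%), against 13.4% of all transcripts tested, and overlapped in 50. The 5 given here were picked from the 19 after their values were seen and were not called by limma. Tet1-209 took 25.2, 27 and 35.9% and then 4.88, 9.99 and 6.06% of Tet1, while Tet1-207 took 2.82, 17.2 and 10.1% and then 44.1, 39.2 and 37.9% (limma adjusted p 0.19 and 0.24). Ctnnd1-205, of the gene for p120 catenin, took 1.2, 6.47 and 5.09% and then 14.7, 22 and 22.2% (limma adjusted p 0.094). Enah-202, of the gene for an actin polymerase, took 7.62, 2.26 and 2.87% and then 14.5, 19.9 and 14.2%, and Cttn-202, of the cortactin gene, 32.3, 35 and 30.3% and then 57.8, 53.4 and 44.5% (limma adjusted p 0.19 and 0.25).

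When transcripts whose starts lie within 500 bases of each other were joined into start groups, a step added after the values had been seen, 13 of 6051 groups (0.215%) were called, in 10 genes. The upstream starts of Tpm1 rose in share from 16.8, 25.1 and 17.5% to 63, 84.2 and 87.8%, and the internal starts fell from 82.3, 71.7 and 80.6% to 34.8, 14.1 and 10.3%. For Kdm2b the distal start group, which joins 6 transcripts, went from 23.5, 11.4 and 18.7% to 78.9, 60.6 and 64.2%. Cald1, caldesmon, which binds actin and tropomyosin, had a start group go from 83.4, 88.2 and 81.7% to 54.2, 49.5 and 45.5%, and Hmgxb4 one from 0.646, 3.04 and 3.09% to 42, 26.2 and 42.3%. Each had a limma adjusted p of 0.045. In Sept1, a septin gene whose level went from 163, 217 and 179 TPM to 9.19, 11.1 and 11.7 TPM, the start group of Sept1-206 went from 0.334, 1.42 and 1.59% to 44.3, 30.2 and 30.9%. The rest of Sept1 fell steeply, so this gain in share is not a like gain in TPM. The other called groups were in Acot7, Etl4, Myo10, Slc7a1 and Usp46. Leaving out any single library, or fitting the 6 control libraries alone, gave 0 calls.

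A change of transcript length alters the counts of a gene whose number of molecules stays the same. With the effective length of each gene in each library as an offset in edgeR, 5062 genes were called, of which 4861 were among the 5967, and none of these changed direction. The offset moved 161 genes by 1 or more on the log2 scale. Rnf43, a receptor ligase that limits WNT signalling, was raised by counts (2.96 ± 0.77, edgeR adjusted p 0.013), but its TPM were 0, 2.41 and 0.790 with LIF2i and 1.92, 2.02 and 1.24 without. With the offset it changed by 0.92 ± 1.12 (edgeR adjusted p 0.56). Notch4, a NOTCH receptor gene chosen after its values were seen, was lowered by counts (-2.75, edgeR adjusted p 0.00022), while its TPM were 5.02, 2.88 and 5.45 and 7.42, 2.17 and 2.12 and its change with the offset was -0.35 (edgeR adjusted p 0.59).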

How the data were processed

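Poly-A RNA of the 9 libraries was prepared with the NEBNext Ultra kit, per the labels' protocols. The authors deposited, for each annotated transcript and library, an estimated count, a TPM value and an effective length, per the file headers. The submitters' processing notes name FastQC, cutadapt 1.8.1, kallisto and sleuth, and the builds mm10 and GRCh38. Their roles, the transcript index and the strand setting are not given in the sources used here. Transcripts were matched to GENCODE M21 by Ensembl identifier (116640 of 119414, with 0.895% to 1.08% of counts unmatched), and the deposited estimated counts and TPM were summed over 35896 genes.

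Summed estimated counts were rounded and tested with edgeR 4.0.16 (robust quasi-likelihood fit, TMM scaling, filterByExpr) in R 4.3.3, over all 9 libraries and with the replicate number as a block. The 2 control groups form the contrast. The design text calls the replicates paired, and same-numbered control libraries deviated together from their group means (r of 0.48, 0.37 and 0.34 for replicates 1, 2 and 3). Transcript shares were tested with limma 3.58.1. DESeq2 1.42.0, other scalings, filters, an effective length offset, no block and left-out libraries were tried as alternatives. Adjusted p-values are Benjamini-Hochberg values over all genes or transcripts tested. Whether the replicates came from separate cultures is said only by the word biological. Plots were drawn with matplotlib 3.10.9.

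Genes named with values are members of 22 lists and the 10 raised and the 10 lowered protein-coding genes with the largest difference in mean TPM. Named too are genes with a called transcript or start group, members of the isoform list, and Notch4. The members and lists were chosen with earlier results of these data known. In simulated counts the gene test recovered 56 of 100 genes changed 2-fold and 80 of 100 changed 4-fold, with 15 false calls. In simulated shares it recovered 2, 10, 34 and 45 of 50 transcripts changed by 1, 2, 4 and 6 log2 odds units, with 6 false calls.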

Additional observations from a re-analysis of the deposited data

How the results depend on the processing

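Alternatives left the direction of nearly every named gene as it was: of 1916 values over 120 genes, 1779 kept their call, 124 lost it, 11 gained one and 2 turned. Both were of Pou5f1, which was not called in the blocked fit and whose log2 change ran from -0.54 to 0.039 as libraries were left out, the latter without all replicate 2 libraries, with 0.0088 without the replicate 2 library with LIF2i. Without the replicate block, which drops the pairing of same-numbered libraries, edgeR called 3509 genes, 1919 raised and 1590 lowered, and 3505 of them were among the 5967. Leaving out single or same-numbered libraries gave 3099 to 6588 called genes, 1671 to 3491 raised and 1428 to 3097 lowered. The lowest counts came without all replicate 3 libraries, and without all replicate 2 libraries 3746 were called. In simulated counts, the fit without the block recovered 40 of 200 changed genes with 0 false calls, and the fit with it 136 with 15. These counts were drawn with replicate differences and with the spread of the blocked fit. The simulation therefore favours the block by its setting and cannot decide between these fits.

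Transcript shares were less stable. Where 17 were called at first, 0 were with the 6 control libraries alone, 9 with a pseudocount of 0.1 TPM, 4 with a share minimum of 5%, 27 on percentage points and 0 to 7 when libraries were left out. Of the 9, the 4 and the 27, only 7, 3 and 9 were among the 17. Genes in which transcripts traded places, 4 at first, numbered 0, 1, 1 and 7 under those 4 settings, 1 with edgeR's transcript usage test and 0 to 1 with libraries left out. Without the block 15 transcripts were called, 9 of them the same. The 13 start groups became 0 with the 6 control libraries alone and 0 with any library left out. Of 261 alternative values for the called transcripts, 69 kept the call, 192 lost it and 0 turned. In simulated shares of 9 libraries, 2 of 50 transcripts changed by 1 log2 odds unit were recovered and 10 of 50 changed by 2.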
